A study of Mus musculus with 71 samples.

Results

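The genes Fcrla, Cacna1e, Dkk3, Bfsp2, Mgst1, Plxdc1 and Tmprss3 are 7 of the 25579 genes measured by RNA-seq in Pax5 mutant pro-B cells. They were chosen by symbol because their mRNA was low in Pax5 ∆CRD1/− pro-B cells and not in Pax5 ∆CRD2/− pro-B cells, as activated genes that depend on the C-terminal regulatory domain 1 (CRD1) of Pax5. Their values in these hemizygous genotypes are therefore a description, whereas the homozygous mutants, the Prd allele and the thymocyte stages were not used in the choice. No threshold came with the choice itself. The groups of the study required a difference above 3-fold, an adjusted p under 0.05 and a mean above 5 TPM. The least reduced of the 7 genes in Pax5 ∆CRD1/− pro-B cells was Bfsp2, at a log2 fold change of −2.65. The most reduced in Pax5 ∆CRD2/− pro-B cells was also Bfsp2, at −0.75.

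All cells came from C57BL/6 mice and were sorted directly from bone marrow or thymus. Pro-B cells were Pax5 +/+ (5 samples), or homozygous for the ∆CRD1, ∆CRD2, ∆CRD1,2, ∆OP, ∆HD or ∆OP,HD allele, or hemizygous with 1 copy of ∆CRD1, ∆CRD2 or ∆CRD1,2 over a null allele (2 samples for each genotype). Pax5 ∆/∆ progenitors (2 samples) were Vav-Cre Pax5 fl/fl, in which Cre acts throughout the haematopoietic system. The Prd experiment held Vav-Cre Pax5 fl/+ pro-B cells, hereafter +/∆, and Vav-Cre Pax5 Prd/fl and Vav-Cre Pax5 fl/fl progenitors, hereafter Prd/∆ and ∆/∆ (2 samples each), and the labels give both progenitor groups an alternative gating. The 17 lymphoid samples were 2 of bone marrow LMPP, 3 each of DN1, DN2a and DN2b, in each of which 2 samples carry the same replicate number and were counted as separate samples, and 2 each of DN3a, DN3b and Rag2 −/− DN3a thymocytes. By the methods of the study, +/+, ∆CRD1/− and ∆CRD2/− pro-B cells were sorted with 1 gate, and ∆CRD1,2/− pro-B cells and ∆/∆ progenitors with another. A difference between these sets can thus include a difference in gate, and the gate of ∆CRD1,2/∆CRD1,2 cells was not stated separately. The study shows these gates on mice a few weeks of age. In sorted bulk samples, fewer cells that express a gene and less RNA per cell cannot be told apart.

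Pax5 is the transcription factor that commits lymphoid progenitors to the B cell lineage. It binds DNA through its N-terminal paired domain, activates B cell genes and represses genes of other lineages. Its octapeptide (OP) recruits Groucho corepressors and its partial homeodomain (HD) can bind the TATA-binding protein. The C-terminal part holds a transactivation domain, which CRD1 contains with a short extension, and an inhibitory domain, most of which lies in CRD2. The Prd allele encodes the paired domain only.

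The members do not belong to 1 pathway. Fcrla encodes an intracellular Fc receptor-like protein of B cells, and Cacna1e the pore-forming subunit of R-type voltage-gated calcium channels. Dkk3 encodes a secreted glycoprotein of the Dickkopf family, whose other members antagonize Wnt signalling, and Plxdc1 a transmembrane protein with a plexin-like domain. Bfsp2 encodes phakinin, an intermediate filament protein best known from the lens. Mgst1 encodes a microsomal glutathione transferase and Tmprss3 a transmembrane serine protease.

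On GRCm38 (GENCODE M21 annotation) the genes lie on 6 chromosomes, with 1 pair on chromosome 1. Fcrla (Entrez gene 98752) lies at chr1:170917576-170927583 and Cacna1e (12290) at chr1:154390731-154884501, both on the minus strand. Dkk3 (50781) is at chr7:112116017-112159057, Bfsp2 (107993) at chr9:103424924-103480420, Plxdc1 (72324) at chr11:97923238-97986444 and Tmprss3 (140765) at chr17:31179265-31198977, all on the minus strand. Mgst1 (56615), on the plus strand, is at chr6:138140316-138156755. Cacna1e spans 494 kb and is by far the longest of the 7. The span of Fcrla holds a processed pseudogene on the same strand and that of Plxdc1 a miRNA gene on the same strand and a processed pseudogene on the opposite strand. Bfsp2 has 2 annotated antisense genes. Whether the counting used strand was not given in the sources used here, so reads of these overlapping genes may be included.

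The promoters were read because Pax5 acts by binding DNA. RefSeq promoters of GRCm38.p6, from 250 bases before to 50 bases after the start site, were at hand for 5 of the 7 genes. They were searched on both strands for CGTGAC, a part of Pax5 recognition sequences, for TCCCNNGGG, part of the palindrome bound by the B cell factor Ebf1, and for CAGGTG, an E-box bound by E proteins such as E2A. CGTGAC occurs in 8.22% of 32851 mouse promoters of this length, CAGGTG in 20.2% and TCCCNNGGG in 6.56%. The 3 promoters shown are the first listed ones with a match, and matches are in capitals.
Fcrla, chr1:170927534-170927833, minus strand: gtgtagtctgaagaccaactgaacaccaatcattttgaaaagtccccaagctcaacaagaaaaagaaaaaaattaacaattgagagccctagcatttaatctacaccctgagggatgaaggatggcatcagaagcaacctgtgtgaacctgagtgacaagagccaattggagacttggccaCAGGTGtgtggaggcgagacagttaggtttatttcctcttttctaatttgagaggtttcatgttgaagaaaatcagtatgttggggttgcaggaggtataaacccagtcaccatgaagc
Bfsp2, chr9:103449127-103449426, minus strand: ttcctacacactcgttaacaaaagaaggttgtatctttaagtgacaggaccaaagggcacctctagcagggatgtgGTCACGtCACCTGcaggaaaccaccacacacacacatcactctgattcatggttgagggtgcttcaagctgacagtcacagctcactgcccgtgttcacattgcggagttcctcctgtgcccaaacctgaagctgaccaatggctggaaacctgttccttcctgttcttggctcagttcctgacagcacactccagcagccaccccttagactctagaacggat
Tmprss3, chr17:31198925-31199224, minus strand: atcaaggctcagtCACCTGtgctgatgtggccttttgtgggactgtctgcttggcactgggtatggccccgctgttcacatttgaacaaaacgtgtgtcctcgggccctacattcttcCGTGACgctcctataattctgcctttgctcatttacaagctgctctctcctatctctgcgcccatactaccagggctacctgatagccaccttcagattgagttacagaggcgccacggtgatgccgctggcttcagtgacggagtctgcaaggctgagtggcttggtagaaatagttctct
In Fcrla the match is CAGGTG, beginning 69 bases before the start site. In Bfsp2 CGTGAC begins 174 bases and CAGGTG 167 bases before the start site, both on the opposite strand and next to each other. In Tmprss3 CGTGAC is 132 bases before the start site and CAGGTG, on the opposite strand, 237 bases before it. The second RefSeq promoter of Tmprss3 holds only CAGGTG, and none of the 3 motifs is in the windows of Cacna1e or Mgst1. The windows of Bfsp2 and Cacna1e lie inside the gene spans given above, away from the annotated gene starts. Which start site pro-B cells use was not examined. A match is a description of the sequence and no measure of binding.

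Levels are given as TPM, a read measure corrected for transcript length whose sum is equal in every sample. Recovered depth was 10018678 to 43784791 reads per sample. Libraries were sequenced with 50-nucleotide reads in 7 and with 100-nucleotide reads in 24 of these samples, and the authors trimmed the reads to 50 bases. In Pax5 +/+ pro-B cells the samples of both read lengths did not overlap for Fcrla (178 to 324 TPM with 50 nucleotides and 115 to 146 with 100), Cacna1e (21.1 to 31.0 and 17.2 to 18) and Tmprss3 (53.9 to 58.9 and 29.5 to 35.5). Read length was therefore a term of the model, and relative levels are given against +/+ samples of the same read length. Since the reads had been trimmed, this term stands for any difference between both sets of libraries, which cannot be told apart from read length. Pax5 mRNA was 342 to 524 TPM in +/+ pro-B cells and 1609 and 1697 TPM in ∆/∆ progenitors. The gene-level value includes exons outside the deletion, so it does not check the ∆/∆ label. All 10 pro-B marker genes were present in every pro-B genotype, with a summed level of 16106 to 20498 TPM in +/+ pro-B cells and 8542 to 9894 TPM in ∆/∆ progenitors. Nothing in the labels says whether replicates came from separate mice, so p-values measure the spread between these samples.

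**Figure D1:**
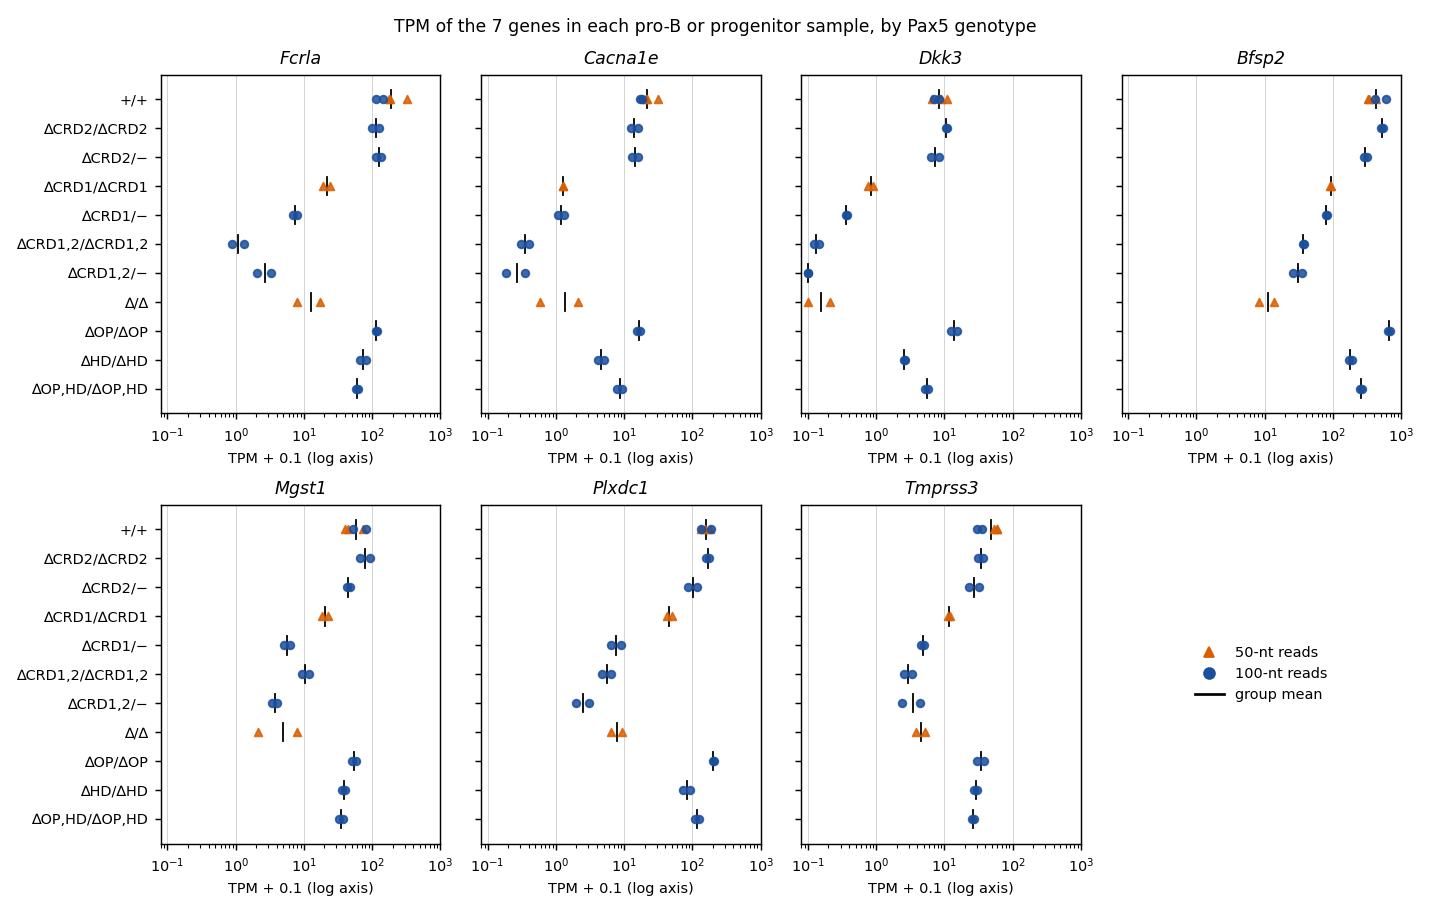
TPM + 0.1 (horizontal, log axis) of the 7 genes in each of 25 samples, by Pax5 genotype (vertical). Triangles are samples with 50-nucleotide reads, circles those with 100-nucleotide reads, and black bars group means. In every panel both ∆CRD1/∆CRD1 samples lie below the +/+ samples, and both ∆CRD2/∆CRD2 samples lie near them.

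The first question was whether the genes are also low when the mutant protein is made from both alleles. In Pax5 ∆CRD1/∆CRD1 pro-B cells all 7 genes were below every +/+ sample. Cacna1e retained 4.67%, Dkk3 8.52% and Fcrla 9.34% of the +/+ mean at the same read length, whereas Tmprss3 retained 20.3%, Bfsp2 25.3%, Plxdc1 29.5% and Mgst1 38.7%.

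Fcrla was 324, 178, 115, 146 and 185 TPM in Pax5 +/+ replicates 1 to 5 (mean 190 ± 80.1, SD, n = 5). It was 24.1 and 18.7 TPM in ∆CRD1/∆CRD1 and 99.9 and 128 TPM in ∆CRD2/∆CRD2 pro-B cells. Both ∆CRD1/∆CRD1 samples lay far below the lowest +/+ sample, while the ∆CRD2/∆CRD2 samples overlapped with the +/+ samples of the same read length. The log2 fold change against +/+ was −3.37 in ∆CRD1/∆CRD1 (SE, the standard error of the fit, 0.30, adjusted p = 1.26e-06 from limma) and −0.20 in ∆CRD2/∆CRD2 pro-B cells (95% confidence interval −0.90 to 0.50).

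Cacna1e was at 21.1, 31.0, 18, 17.2 and 21.9 TPM in the +/+ replicates (21.8 ± 5.48). It fell to 1.15 TPM in both ∆CRD1/∆CRD1 samples and was at 15.8 and 12.3 TPM in ∆CRD2/∆CRD2 pro-B cells. The latter were both below the lowest +/+ sample, at 89.4% and 69.8% of the +/+ mean at the same read length. Its log2 fold change of −4.28 in ∆CRD1/∆CRD1 pro-B cells (SE 0.39, adjusted p = 1.48e-06 from limma) was the largest among the members, against −0.34 in ∆CRD2/∆CRD2 pro-B cells (interval −1.25 to 0.57).

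Dkk3, the least expressed member, was at 8.80, 10.7, 8.16, 7.04 and 6.48 TPM in the +/+ replicates (8.23 ± 1.64) and at 0.670 and 0.804 TPM in ∆CRD1/∆CRD1 pro-B cells, with 29 reads in each. It was at 10.7 and 10.3 TPM in ∆CRD2/∆CRD2 pro-B cells, in the upper part of the +/+ range. The log2 fold changes were −3.36 in ∆CRD1/∆CRD1 (SE 0.30, adjusted p = 1.26e-06 from limma) and 0.46 in ∆CRD2/∆CRD2 pro-B cells (interval −0.24 to 1.16).

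Bfsp2, the most expressed member, was at 331, 341, 606, 419 and 425 TPM in the +/+ replicates (425 ± 110.2). It was at 95.3 and 90.1 TPM in ∆CRD1/∆CRD1 and at 551 and 509 TPM in ∆CRD2/∆CRD2 pro-B cells, the latter within the +/+ range. It fell by 1.97 on the log2 scale in ∆CRD1/∆CRD1 pro-B cells (SE 0.19, adjusted p = 2.02e-06 from limma), and its change in ∆CRD2/∆CRD2 pro-B cells was 0.07 (interval −0.36 to 0.50).

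Plxdc1 was at 135, 180, 190, 135 and 152 TPM in the +/+ replicates (158 ± 25.3), at 42.7 and 49.4 TPM in ∆CRD1/∆CRD1 and at 174 and 160 TPM in ∆CRD2/∆CRD2 pro-B cells. Again only the ∆CRD1/∆CRD1 samples lay outside the +/+ range. The log2 fold changes were −1.75 (SE 0.23, adjusted p = 6.48e-05 from limma) and 0.07 (interval −0.46 to 0.59).

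Tmprss3 was at 58.7, 58.9, 29.5, 35.5 and 53.9 TPM in the +/+ replicates (47.3 ± 13.8). It was at 11.2 and 12 TPM in ∆CRD1/∆CRD1 pro-B cells and at 37.0 and 30.8 TPM in ∆CRD2/∆CRD2 pro-B cells, which overlapped with the +/+ samples of the same read length. It fell by 2.29 on the log2 scale with loss of CRD1 (SE 0.22, adjusted p = 2.72e-06 from limma), compared with 0.06 upon loss of CRD2 (interval −0.45 to 0.58).

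Mgst1 was the least affected. It was at 72.4, 44.5, 51.9, 80.7 and 40.0 TPM in the +/+ replicates (57.9 ± 17.8), at 22.1 and 18.3 TPM in ∆CRD1/∆CRD1 and at 93.7 and 65.7 TPM in ∆CRD2/∆CRD2 pro-B cells. Its groups did not overlap between +/+ and ∆CRD1/∆CRD1 pro-B cells, and the change of −1.32 on the log2 scale passed the threshold (SE 0.38, adjusted p = 0.0329 from limma), against 0.28 in ∆CRD2/∆CRD2 pro-B cells (interval −0.59 to 1.15). This call was lost in 7 of 21 alternatives, with an adjusted p of up to 0.237. Leaving out 1 library sufficed, with an adjusted p of 0.125 without +/+ replicate 1, 0.0524 without +/+ replicate 2, 0.140 and 0.237 without ∆CRD1/∆CRD1 replicate 1 or 2, respectively.

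Thus 7 of 7 members were lower in ∆CRD1/∆CRD1 pro-B cells at an adjusted p under 0.05, where 5.1% of the 14000 genes tested were lower, and their median log2 fold change was −2.29 against −0.06 over all genes. The +/+ samples had also served to choose the members, so this comparison repeats the choice with new mutant samples only. In ∆CRD2/∆CRD2 pro-B cells 0 of 7 passed in either direction, where 0.0143% of all genes were lower and 0.1% higher, and the smallest adjusted p was 0.772 (limma). Compared directly, 6 of 7 members were lower in ∆CRD1/∆CRD1 than in ∆CRD2/∆CRD2 pro-B cells, against 1.36% of all genes. The exception was Mgst1, at a log2 fold change of −1.60 (adjusted p = 0.161 from limma), which passed without a read length term (0.00787) and with DESeq2 (0.00665). These 2 genotypes differ in read length, so that this comparison runs through the +/+ samples of both read lengths. The summed level of 8 thymocyte-stage genes was 126 to 165 TPM in +/+, 139 to 153 TPM in ∆CRD2/∆CRD2 and 229 to 260 TPM in ∆CRD1/∆CRD1 pro-B cells. In the latter Ptcra and Bcl11b were listed at 0. Markers of plasmacytoid dendritic cells (347 to 370 against 429 to 507 TPM) and mature B cells (41.7 to 48.9 against 50.4 to 103 TPM) were lower in ∆CRD1/∆CRD1 than in +/+ samples. Erythroid markers (67.4 to 72.4 against 90.1 to 314 TPM) were as well. Pro-B markers (17474 to 18583 TPM) were within the +/+ range but below those of ∆CRD2/∆CRD2 pro-B cells (21732 to 22381 TPM). The part of these genes in the results was not tested.

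**Figure D2:**
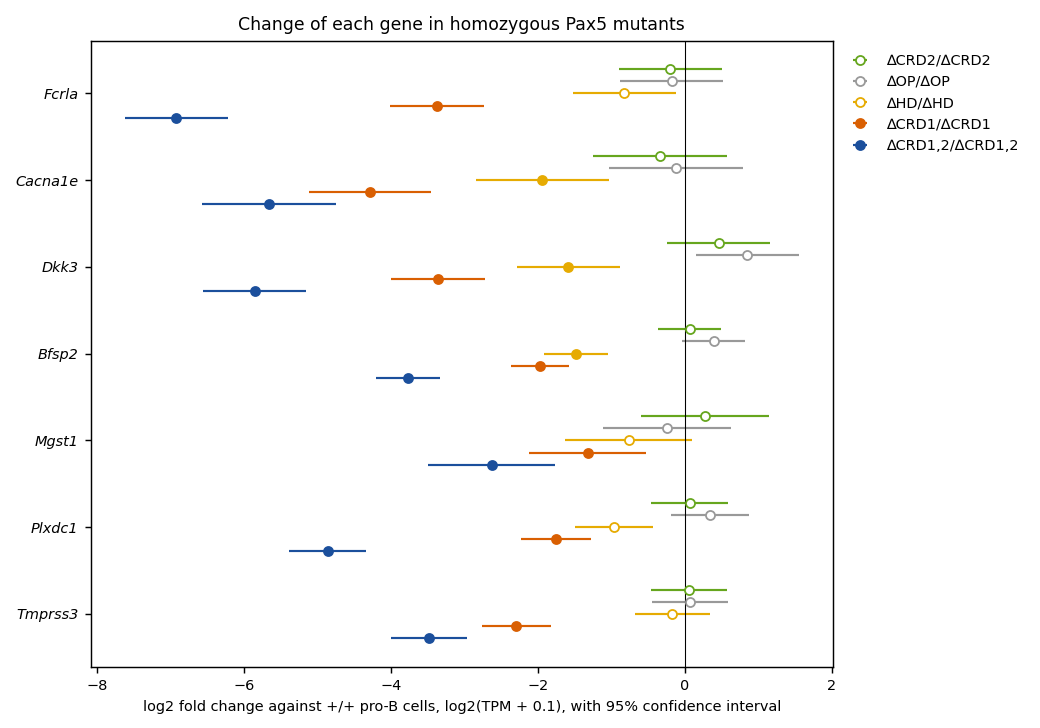
Log2 fold change of each gene (vertical) against Pax5 +/+ pro-B cells (horizontal, log2(TPM + 0.1) scale) in 5 homozygous mutants, with 95% confidence intervals as bars. Filled points passed an adjusted p of 0.05 in limma. The ∆CRD1/∆CRD1 points lie between −4.28 and −1.32, the ∆CRD1,2/∆CRD1,2 points are lower for each gene, and no ∆CRD2/∆CRD2 or ∆OP/∆OP point is filled.

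Loss of CRD1 was then examined in the absence of CRD2, by setting ∆CRD1,2/∆CRD1,2 against ∆CRD2/∆CRD2 pro-B cells. Both genotypes have the same read length, and none of their samples served to choose the members. All 7 members were lower in ∆CRD1,2/∆CRD1,2 pro-B cells, where 18.5% of all genes were. Summed markers of pro-B cells were also lower (16146 to 16757 TPM against 21732 to 22381 TPM). Mature B cell (31.1 to 36.1 against 63.6 to 145 TPM) and erythroid markers (11.2 to 88.4 against 105 to 634 TPM) were lower too. Macrophage (24.3 to 37.7 against 47.8 to 142 TPM) and plasmacytoid dendritic cell markers (289 to 299 against 369 to 447 TPM) were as well. T cell markers (159 to 183 against 132 TPM) and thymocyte-stage genes (388 to 396 against 139 to 153 TPM) were higher. The part of these markers in the results was not tested. Fcrla was at 0.785 and 1.2 TPM, against 99.9 and 128 TPM with CRD1 present (log2 fold change −6.72, SE 0.33, adjusted p = 3.17e-10 from limma). Plxdc1 was at 6.31 and 4.62 TPM (−4.93, adjusted p = 4.34e-10 from limma) and Cacna1e at 0.301 and 0.208 TPM (−5.32, adjusted p = 1.14e-07 from limma). Fcrla was thus at 0.760%, Cacna1e at 1.44% and Plxdc1 at 3.37% of the +/+ mean.

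Dkk3 was near the limit of detection, with 1 and 2 reads, or 0.0222 and 0.0445 TPM, in ∆CRD1,2/∆CRD1,2 pro-B cells. Its ratio of ∆CRD2/∆CRD2 to ∆CRD1,2/∆CRD1,2 pro-B cells was 289, with a counting interval of 98.7 to 1405 that covers counting error only. The fitted log2 fold change of −6.32 (adjusted p = 6.89e-10 from limma) depends on the pseudocount.

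The remaining members kept a larger part of their expression. Bfsp2 was at 38.0 and 36.0 TPM (7.22% of +/+, log2 fold change −3.84 against ∆CRD2/∆CRD2, adjusted p = 7.99e-10 from limma). Tmprss3 was at 2.43 and 3.24 TPM (8.73%, −3.54, adjusted p = 1.64e-08 from limma). Mgst1 was at 11.6 and 9.27 TPM (15.8%, −2.91, adjusted p = 5.11e-05 from limma) and thus again the least reduced.

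Compared with ∆CRD1/∆CRD1 pro-B cells, 4 of 7 members were lower in ∆CRD1,2/∆CRD1,2 pro-B cells, where 2.01% of all genes were. These were Fcrla (log2 fold change −3.55, adjusted p = 0.00024 from limma), Plxdc1 (−3.11, adjusted p = 6.8e-05), Dkk3 (−2.49, adjusted p = 0.00586) and Bfsp2 (−1.79, adjusted p = 0.00158). The values of Cacna1e (−1.37, adjusted p = 0.254), Mgst1 (−1.31, adjusted p = 0.256) and Tmprss3 (−1.19, adjusted p = 0.0666) did not pass in limma. For each of these 3 genes too, both ∆CRD1,2/∆CRD1,2 samples lay below both ∆CRD1/∆CRD1 samples. Without a term for read length, which differs between these genotypes, Cacna1e and Tmprss3 also passed, Tmprss3 did so with edgeR and DESeq2, and Mgst1 with DESeq2 (adjusted p = 0.0324). The call of Dkk3 was lost with a pseudocount of 1 (adjusted p = 0.266 from limma). Against +/+, 7 of 7 members were lower in ∆CRD1,2/∆CRD1,2 pro-B cells (15.6% of all genes), with a median log2 fold change of −4.86. The thymocyte-stage genes summed to 388 to 396 TPM in these cells, and Pax5 mRNA was 761 and 770 TPM. Their part in the lower levels was not tested. The effect of losing CRD1 with CRD2 present and without it was compared in a test chosen after seeing the data. The decrease was larger without CRD2 for 5 of 7 members at an adjusted p under 0.05 in limma, where this was so for 3.69% of all genes. Of these 5, Tmprss3 lost its call in 18 of 37 alternatives, among them the omission of any 1 of 14 libraries.

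The hemizygous genotypes show how much of each gene was left with 1 copy of a mutant allele. In Pax5 ∆CRD1/− pro-B cells the levels were 3.51% (Dkk3) to 15.7% (Bfsp2) of +/+, and in ∆CRD2/− pro-B cells 58.5% (Bfsp2) to 95% (Fcrla). These are the values the choice rests on, and they carry no test.

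For 6 members both samples with 2 copies of ∆CRD1 were above both samples with 1. Plxdc1 was at 6.31 and 8.75 TPM in ∆CRD1/− pro-B cells, and its level with 2 copies was 6.11 times as high. Mgst1 was at 5.00 and 6.26 TPM, with a ratio of 3.60. Dkk3 was at 0.268 and 0.265 TPM, with a ratio of 2.77.

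Fcrla was at 7.79 and 6.79 TPM in ∆CRD1/− pro-B cells, with a ratio of 2.94, and Tmprss3 at 4.51 and 4.88 TPM, with a ratio of 2.47. The +/+ levels of both were 1.76 times as high with 50-nucleotide as with 100-nucleotide reads, and relative to +/+ Fcrla was at 5.58% with 1 copy and 9.34% with 2, and Tmprss3 at 14.5% and 20.3%. Bfsp2 was at 78.1 and 82.6 TPM with a ratio of 1.15. Cacna1e was at 0.967 and 1.2 TPM, which overlapped with the level from 2 copies at a ratio of 1.06. Its 2 genotypes were thus alike in TPM, and relative to +/+ it was at 6.15% with 1 and 4.67% with 2 copies. The ∆CRD1/∆CRD1 samples had 50-nucleotide and the ∆CRD1/− samples 100-nucleotide reads. Copy number thus cannot be told apart from read length, or from what else differs between both sets of libraries, except through the +/+ samples. With read length in the model, the log2 fold changes of 2 copies against 1 were 2.66 for Plxdc1, 2.19 for Mgst1, 1.03 for Dkk3, 0.77 for Fcrla (95% confidence interval −0.18 to 1.72), 0.68 for Bfsp2, 0.47 for Tmprss3 and −0.37 for Cacna1e. Pax5 mRNA was at 746 and 798 TPM with 2 copies of ∆CRD1 and at 451 and 410 TPM with 1.

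For ∆CRD2, Bfsp2 was at 285 and 315 TPM with 1 copy and 551 and 509 TPM with 2. Plxdc1 was at 86.0 and 118 TPM against 174 and 160 TPM. These members, Mgst1 (46.6 and 43.1 against 93.7 and 65.7 TPM) and Dkk3 (6.19 and 8.22 against 10.7 and 10.3 TPM) did not overlap between 1 and 2 copies, with ratios of 1.46 to 1.78. Fcrla (114 and 135 TPM with 1 copy), Cacna1e (13.0 and 15.9 TPM) and Tmprss3 (22.7 and 31.8 TPM) overlapped with the 2-copy samples. Here both genotypes had the same read length. Pax5 mRNA was at 464 to 512 TPM with 2 copies of ∆CRD2 and at 241 to 304 TPM with 1. Granulocyte marker genes varied between 1008 and 15655 TPM in the ∆CRD2/− samples and between 564 and 8641 TPM in the ∆CRD2/∆CRD2 samples. Mature B cell markers, 4 of 5 of which were measured, were at 33.9 to 44.5 TPM with 1 copy and 63.6 to 145 TPM with 2, without overlap. T cell markers (138 to 161 against 132 TPM) and thymocyte-stage genes (170 to 184 against 139 to 153 TPM) were higher with 1 copy. The part of Pax5 mRNA and of these markers in the levels was not tested.

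**Figure D3:**
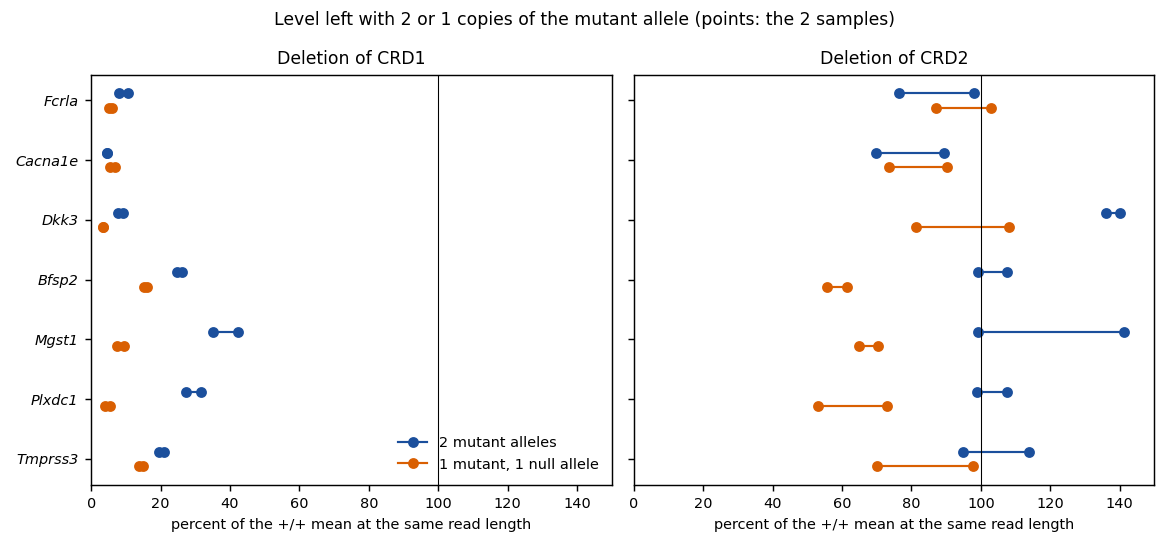
Level of each gene (vertical) in percent of the Pax5 +/+ mean at the same read length (horizontal), for deletion of CRD1 (left) and CRD2 (right). Blue points are the 2 homozygous and orange points the 2 hemizygous samples, joined by a line, and the vertical line marks 100%. For CRD1 all points lie far below 100%, and for Plxdc1 and Mgst1 homozygous and hemizygous samples are farthest apart.

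With 1 copy of ∆CRD1,2, Dkk3 had 0 reads in both samples, so that +/+ pro-B cells were at least 274-fold higher, taking 3 reads over the group as the floor. Fcrla was at 3.25 and 1.94 TPM, Cacna1e at 0.0863 and 0.255 TPM, and Plxdc1 at 1.89 and 2.98 TPM. In ∆/∆ progenitors the same genes were at 7.89 and 16.9 TPM, 0.480 and 2.02 TPM, and 6.30 and 9.08 TPM, respectively. Fcrla, Cacna1e and Plxdc1 were thus higher in both of these ∆/∆ samples than in both ∆CRD1,2/− samples, though the read lengths differ. Dkk3 had 3 and 0 reads in ∆/∆ progenitors. Bfsp2 was at 35.5 and 25.8 TPM in ∆CRD1,2/− pro-B cells and at 13.8 and 8.29 TPM in ∆/∆ progenitors, the opposite order. Mgst1 (4.00 and 3.34 against 7.76 and 2.04 TPM) and Tmprss3 (4.32 and 2.31 against 5.04 and 3.72 TPM) overlapped. The median log2 fold change of the members against +/+ was −5.63 in ∆CRD1,2/− pro-B cells and −4.34 in ∆/∆ progenitors. These comparisons served the study when it grouped its genes, so the medians are a description. In the ∆/∆ samples of the Prd experiment, which have the read length of ∆CRD1,2/− pro-B cells, Fcrla and Cacna1e overlapped with that genotype. Fcrla was at 2.09 and 1.43 TPM there and Cacna1e at 0.0931 and 0.0824 TPM. Plxdc1, at 3.57 and 3.85 TPM, was again higher. The labels give these samples an alternative gating.

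The central domains were examined next, since the members had been chosen on C-terminal deletions. Without the OP, 0 of 7 members passed against +/+, where 0.493% of all genes were lower and 0.529% higher. Dkk3 was at 15.1 and 12.6 TPM, above all +/+ samples, with a log2 fold change of 0.85 (adjusted p = 0.209 from limma), and 1 member, Dkk3, passed with DESeq2 on recovered reads. Without the HD, 3 of 7 members were lower, where 0.371% of all genes were.

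In Pax5 ∆HD/∆HD pro-B cells Cacna1e was at 5.03 and 4.08 TPM, a change of −1.94 on the log2 scale (limma adjusted p = 0.0393). Dkk3 was at 2.51 and 2.42 TPM (−1.58, adjusted p = 0.0255 from limma) and Bfsp2 at 191 and 171 TPM (−1.48, adjusted p = 0.00118 from limma). All of these samples lay below the +/+ samples. Without +/+ replicate 3 or 4, or ∆HD/∆HD replicate 1 or 2, the calls of both Cacna1e (adjusted p from 0.158 to 0.212) and Dkk3 (0.0921 to 0.170) were lost in limma, while that of Bfsp2 was not.

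Plxdc1 was at 92.8 and 72.5 TPM (−0.96, adjusted p = 0.0894 from limma), below the +/+ samples. Fcrla, at 80.3 and 66.7 TPM, was also below them (−0.83, adjusted p = 0.353). Mgst1 (40.5 and 35.8 TPM, −0.76, adjusted p = 0.552) and Tmprss3 (30.4 and 27.3 TPM, −0.17, adjusted p = 0.903) overlapped with the +/+ samples. Expression was therefore at 25.8% of +/+ for Cacna1e, 32.4% for Dkk3 and 35.3% for Bfsp2, but at 88.8% for Tmprss3.

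Set against each other, without the +/+ samples, 4 members were lower in ∆HD/∆HD than in ∆OP/∆OP pro-B cells, where 2.08% of all genes were. These were Dkk3 (−2.44, adjusted p = 0.0003 from limma), Bfsp2 (−1.87, adjusted p = 4.23e-05), Cacna1e (−1.82, adjusted p = 0.0213) and Plxdc1 (−1.30, adjusted p = 0.00556). The call of Cacna1e was lost when any 1 of the 4 samples was left out (adjusted p from 0.0856 to 0.153 from limma), and that of Plxdc1 without replicate 2 of ∆HD/∆HD (0.0826) or of ∆OP/∆OP (0.0612). In ∆OP,HD/∆OP,HD pro-B cells only Bfsp2, at 248 and 268 TPM, was lower than in +/+ (−0.97, adjusted p = 0.0185 from limma; 0.671% of all genes). This call was lost without +/+ replicate 3 (adjusted p = 0.200) or without either mutant replicate (0.167 and 0.0886). Macrophage marker genes were at 22.5 to 26.4 TPM in ∆HD/∆HD, 99.9 to 106 TPM in ∆OP/∆OP and 40.2 to 89.7 TPM in +/+ samples. Granulocyte (408 to 1607 against 6624 to 7028 TPM) and erythroid markers (76.8 to 86.7 against 218 to 252 TPM) were also lower in ∆HD/∆HD than in ∆OP/∆OP samples. Markers of pro-B, mature B and plasmacytoid dendritic cells were lower too, without overlap. T cell markers (157 to 181 against 101 to 120 TPM) and thymocyte-stage genes (197 to 203 against 158 to 159 TPM) were higher. The part of these markers in the results was not tested.

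The Prd allele asks whether the paired domain alone can maintain the genes. All 7 were lower in Prd/∆ progenitors than in +/∆ pro-B cells, where 16.6% of the 12941 genes tested were lower, with a median log2 fold change of −5.49. Fcrla was at 104 and 99.3 TPM in +/∆, at 1.58 and 2.21 TPM in Prd/∆ and at 2.09 and 1.43 TPM in ∆/∆ cells. Both progenitor groups overlapped and lay far below the +/∆ samples (Prd/∆ against +/∆, log2 fold change −5.69, SE 0.23, adjusted p = 3.29e-05 from limma).

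Plxdc1 was at 120 and 112 TPM in +/∆, 2.52 and 2.44 TPM in Prd/∆ and 3.57 and 3.85 TPM in ∆/∆ cells, and was thus lowest in Prd/∆ progenitors. Cacna1e was at 36.7 and 34.1 TPM in +/∆ and higher in Prd/∆ (0.380 and 0.270 TPM) than in ∆/∆ progenitors (0.0931 and 0.0824 TPM). Neither difference between Prd/∆ and ∆/∆ progenitors passed the threshold, at log2 fold changes of −0.56 for Plxdc1 (95% confidence interval −0.86 to −0.27, adjusted p = 0.0853 from limma) and 1.17 for Cacna1e (0.46 to 1.88, adjusted p = 0.116). Both did with edgeR and with DESeq2 on recovered reads, and that of Cacna1e also in limma without Prd/∆ replicate 2 (adjusted p = 0.0367).

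Bfsp2 was at 210.1 and 244 TPM in +/∆, 16.1 and 8.11 TPM in Prd/∆ and 13.7 and 9.90 TPM in ∆/∆ cells. Mgst1 was at 24.6 and 20.2, 1.2 and 1.1, and 1.30 and 0.744 TPM in the same order. Tmprss3, at 50.4 and 35.8, 9.54 and 5.35, and 6.14 and 4.16 TPM, was the least reduced of the members (Prd/∆ against +/∆, −2.55, adjusted p = 0.00149 from limma). Dkk3 was at 5.86 and 6.30 TPM in +/∆ cells, with 2 and 1 reads in Prd/∆ and 0 reads in both ∆/∆ samples. The ratio of +/∆ to Prd/∆ cells was 210 (counting interval 71.5 to 1020), and that of +/∆ to ∆/∆ cells was at least 250.2 with a floor of 3 reads over the group.

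In ∆/∆ against +/∆ cells 7 of 7 members were lower (19.1% of all genes), and between Prd/∆ and ∆/∆ progenitors 0 of 7 passed in limma, where 0.796% of all genes were lower and 1.17% higher. The first 2 comparisons share the +/∆ samples. The study had used other ∆/∆ samples to group its genes, so lower levels in ∆/∆ cells repeat that grouping in new samples. Vpreb1, Vpreb3, Cd79a, Scn4a and Sit1 are 5 of the activated genes that the study names as little affected by C-terminal deletions. They were picked on samples of this study. In the same test 4 of these 5 were higher in Prd/∆ than in ∆/∆ progenitors. Among them were Vpreb3 (log2 fold change 1.54, adjusted p = 0.00356 from limma) and Cd79a (1.48, adjusted p = 0.00206). The study had already named Vpreb3 and Cd79a as activated by the paired domain from these samples, so they are no independent evidence. Of the same 5 genes 1 was lower and 1 higher in ∆CRD1/∆CRD1 than in +/+ pro-B cells (5.1% and 4.53% of all genes). In ∆CRD1,2/∆CRD1,2 against ∆CRD2/∆CRD2 pro-B cells 3 of them were lower, where 18.5% of all genes were. The pro-B markers summed to 16182 to 16364 TPM in +/∆, 10309 to 11225 TPM in Prd/∆ and 8847 to 9166 TPM in ∆/∆ cells. Thymocyte-stage genes summed to 178 to 200 TPM, 782 to 863 TPM and 808 to 846 TPM, respectively. Gate and genotype cannot be told apart between +/∆ pro-B cells and the progenitors.

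**Figure D4:**
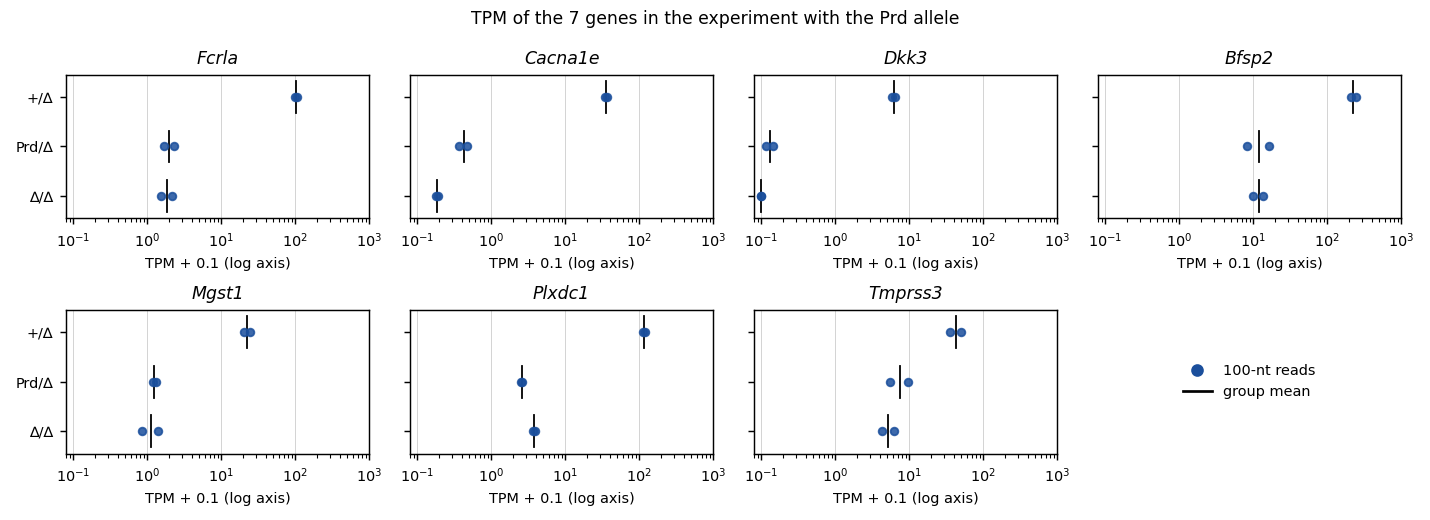
TPM + 0.1 (horizontal, log axis) of the 7 genes in the 2 samples each of +/∆ pro-B cells and of Prd/∆ and ∆/∆ progenitors (vertical), with circles for samples and black bars for group means. In each panel the Prd/∆ and ∆/∆ samples lie close together and below the +/∆ samples.

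Outside the B cell lineage the members parted. In LMPP and thymocytes Fcrla, Cacna1e and Dkk3 were at most 0.372, 0.128 and 0.176 TPM and were listed at 0 in 6, 7 and 10 of 17 samples. They were not tested. The 4 others were expressed at some stage, each with a course of its own. These files give 2 TPM values for a gene, whose difference is not explained, and their mean was used here.

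Plxdc1 was at 0.271 and 0.134 TPM in LMPP, 0.855, 1.22 and 1.91 TPM in DN1, and 1.03, 1.14 and 1.28 TPM in DN2a cells. It was at 3.73, 3.88 and 4.55 TPM in DN2b, 96.8 and 103 TPM in DN3a, and 28.0 and 22.5 TPM in DN3b thymocytes. In Rag2 −/− DN3a cells it was at 120 and 130 TPM. These DN3a levels lie below the 135 to 190 TPM of +/+ pro-B cells. The files were made with other tools, and no test was run between them. Plxdc1 rose from LMPP to DN1 (log2 fold change 2.21, adjusted p = 4.56e-05 from limma; 6.73% of 13482 genes were higher), from DN2a to DN2b (1.73, adjusted p = 0.000175; 9.8%) and from DN2b to DN3a (4.60, adjusted p = 4.4e-08; 31.4%).

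Mgst1 was highest in LMPP, at 63.0 and 44.0 TPM, the range of +/+ pro-B cells. It was at 7.38 to 9.18 TPM in DN1, 5.08, 8.62 and 12.8 TPM in DN2a, 2.39 to 3.26 TPM in DN2b, 2.53 and 1.02 TPM in DN3a and 0.230 and 0 TPM in DN3b cells. It fell from LMPP to DN1 (−2.64, adjusted p = 0.00116 from limma; 11.9% of genes were lower) and from DN2a to DN2b (−1.49, adjusted p = 0.0257; 8.43%). The second call was lost in 5 of 18 alternatives, among them those without either of the DN2a samples labelled replicate 1 (adjusted p = 0.0743 and 0.117 from limma) or without DN2b replicate 1 (0.0887). Granulocyte marker genes summed to 2144 to 2404 TPM in LMPP, 1799 to 2052 TPM in DN1, 468 to 509 TPM in DN2a and 12 to 25.1 TPM in DN2b cells. From DN1 to DN2a, where these markers were lower, Mgst1 was at −0.02 on the log2 scale (95% confidence interval −0.94 to 0.89). Their part in its levels was not tested.

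Tmprss3 was at 10.6 and 6.79 TPM in LMPP, 7.35, 11.5 and 13.6 TPM in DN1 and 4.76, 6.37 and 8.41 TPM in DN2a cells. It was at 0.974, 2.09 and 3.40 TPM in DN2b, at 0.999 and 1.71 TPM in DN3a and at 0.171 and 0.140 TPM in DN3b cells. It fell from DN2a to DN2b (−1.67, adjusted p = 0.00882 from limma). The 2 deposited values differed most for this gene, by a median factor of 2.84, against 1.11 to 1.38 for the other members.

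Bfsp2 was at 7.73 and 5.73 TPM in LMPP, 8.81 and 9.72 TPM in DN3a and 1.61 and 1.48 TPM in DN3b cells, far below its level in +/+ pro-B cells. Its entry carries a suffix whose meaning is not explained, as do 3539 of 24420 genes. From DN3a to DN3b, the step of pre-TCR selection, all 4 tested members fell, where 39.2% of all genes did and the median of all genes was −0.41. The log2 fold changes were −3.24 for Mgst1, −2.51 for Bfsp2, −2.47 for Tmprss3 and −1.99 for Plxdc1 (adjusted p from 4.53e-05 to 0.000757 in limma). After median-ratio scaling they were −2.98, −2.17, −2.18 and −1.64, and all passed. With the lower of the 2 deposited values Tmprss3 was at −1.41 and did not pass (adjusted p = 0.0598 from limma). From DN1 to DN2a 0 of 4 passed, where 22.9% of genes were lower and 10.9% higher.

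**Figure D5:**
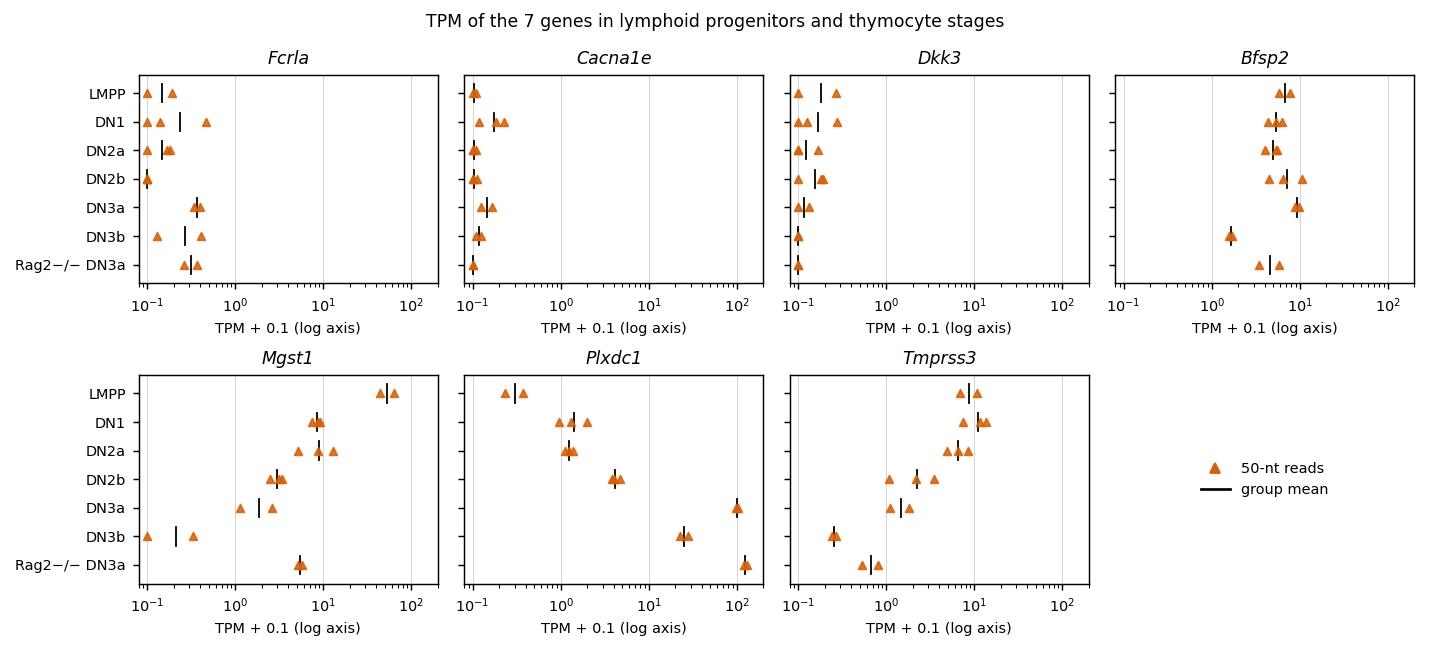
TPM + 0.1 (horizontal, log axis) of the 7 genes in LMPP, DN1, DN2a, DN2b, DN3a, DN3b and Rag2 −/− DN3a samples (vertical). Triangles are samples and black bars group means. Plxdc1 is highest in Rag2 −/− DN3a and DN3a cells and Mgst1 in LMPP, while Fcrla, Cacna1e and Dkk3 stay below 1 TPM.

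Among themselves the members had similar profiles over the 25 pro-B and progenitor samples, with Pearson coefficients of 0.826 to 0.970 (median 0.932) over 21 pairs, a likeness that the choice itself favours. The other genes most like their mean profile, of 9848 compared, were Gpam (r = 0.992), Neil1 (0.987), Pde9a (0.987), Prep (0.985), Slc12a3 (0.983) and Pik3ap1 (0.982). The samples share genotypes, and these coefficients are a description. Gpam had a mean of 245 TPM in +/+, 65.9 TPM in ∆CRD1/∆CRD1 and 217 TPM in ∆CRD2/∆CRD2 pro-B cells. Pde9a was at 38.0, 0.739 and 30.6 TPM, respectively, and at 9.28 TPM in ∆HD/∆HD pro-B cells.

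Lcp2 and Heyl, named in the study for a like pattern, were compared with the members. Heyl, a Hes-related repressor gene, had a log2 fold change of −3.41 in ∆CRD1/∆CRD1 pro-B cells (adjusted p = 2.97e-06 from limma) and was at −0.67 in ∆CRD2/∆CRD2 pro-B cells (adjusted p = 0.665). Lcp2, which encodes the adaptor SLP-76, was at −0.99 in ∆CRD1/∆CRD1 pro-B cells and did not pass (adjusted p = 0.101). Of 5 genes that the study names as needing both domains (Enpep, Tmem132e, Slc52a3, Cldn4 and Grb7), 5 were also lower in ∆CRD1/∆CRD1 and 0 in ∆CRD2/∆CRD2 pro-B cells, with median log2 fold changes of −4.23 and −0.88. In ∆CRD2/− pro-B cells their median was −2.40, against −0.29 for the members, a difference that the choice of both sets fixes. All of these genes were picked on samples of this study and are no independent evidence.

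Relatives of the members were examined to see whether whole families behaved alike. Among all genes, 5.1% were lower and 4.53% higher in ∆CRD1/∆CRD1 than in +/+ pro-B cells, and 18.5% were lower and 12.5% higher in ∆CRD1,2/∆CRD1,2 than in ∆CRD2/∆CRD2 pro-B cells. Counts of 1 in a family are near these shares. Of 9 Fc receptor and Fc receptor-like genes tested, 1 was lower in ∆CRD1/∆CRD1 pro-B cells, namely the inhibitory receptor gene Fcgr2b (log2 fold change −1.95, adjusted p = 0.00541 from limma). In ∆CRD1,2/∆CRD1,2 against ∆CRD2/∆CRD2 pro-B cells 4 were lower, among them Fcgr2b (−3.34) and the IgM receptor gene Fcmr (−5.15). Of 11 voltage-gated calcium channel genes, 2 were lower and 3 higher in ∆CRD1/∆CRD1 pro-B cells. Cacna2d1, which encodes an auxiliary channel subunit, fell by 2.95 (adjusted p = 0.000135 from limma), whereas the pore-forming Cacna1b rose by 1.18 (adjusted p = 0.0024). In the other comparison 4 were lower, with Cacna2d1 at −6.16, and 3 higher.

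Of 14 MAPEG and glutathione transferase genes, 1 was lower (Gstp1, −0.78) and 3 were higher in ∆CRD1/∆CRD1 pro-B cells, among them Mgst2 (0.93, adjusted p = 0.00151 from limma), opposite to Mgst1. Of 4 Dickkopf and Wnt co-receptor genes, Kremen1 was lower (−0.80, adjusted p = 0.000467 from limma). Among 7 intermediate filament genes 1 was lower, among 10 plexin-related genes 0 were lower and 1 higher, and among 4 transmembrane serine protease genes 0 passed. In ∆CRD1,2/∆CRD1,2 against ∆CRD2/∆CRD2 pro-B cells 3 of these 4 protease genes were higher, among them St14 (0.66), opposite to Tmprss3, and of the plexin-related genes 4 were lower and 2 higher.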

How the data were processed

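Poly(A) RNA-seq values of 25 pro-B and progenitor samples, 6 samples of the Prd experiment and 17 lymphoid samples were used, and ATAC-seq and ChIP-seq samples were not analysed here. Samples were grouped by their labels. For the first 31 samples the authors trimmed reads to 50 bases, aligned them with STAR (2.4.2a) to GRCm38/mm10, counted them per RefSeq gene with Rsubread and deposited TPM. The deposited counts of raw reads gave gene lengths, from which depth was recovered, with 100% of values whole within 0.01 read. Of these files, 8 lack gene names and were read in the row order of the 23 others. For lymphoid samples the authors used TopHat (1.4.1) and mm9 and deposited 2 TPM values per gene, which were averaged, with an entry of exactly 1 read as 0.

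Tests used limma 3.58.1 (R 4.3.3) on log2(TPM + 0.1) of genes that exceeded 1 TPM in 1 or more samples, with read length as a term in the 25-sample model, a trend of the variance on expression and p-values adjusted by Benjamini-Hochberg over every gene of the model. Fold changes are on this scale, which understates changes of low genes. A call is an adjusted p under 0.05. Alternatives included edgeR 4.0.16 and DESeq2 1.42.0 on recovered reads, and the fits were tested on simulated data. The members and all gene lists were chosen with earlier results of these data known. The rule for named genes took all members, Pax5, Lcp2, Heyl, the 6 genes most alike over the 25 samples, and up to 4 examples per list by +/+ level. Depth limits Dkk3, whose intervals cover counting error only. Counts were compared between replicates, and no pair agreed within sampling noise.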

Additional observations from a re-analysis of the deposited data

Results flagged for a closer look

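For 5 members the effect of losing CRD1 differed between cells with and without CRD2. This difference, the change between ∆CRD1,2/∆CRD1,2 and ∆CRD2/∆CRD2 minus the change between ∆CRD1/∆CRD1 and +/+ pro-B cells, was tested as a contrast of the 25-sample limma model and was chosen after seeing the data. It was lower for 3.69% of all genes. Fcrla differed by −3.35 on the log2 scale (standard error 0.45, adjusted p = 0.000526 from limma), Plxdc1 by −3.17 (0.34, adjusted p = 6.06e-05), Dkk3 by −2.95 (0.45, adjusted p = 0.00112) and Bfsp2 by −1.86 (0.28, adjusted p = 0.00102). In these genes the decrease upon loss of CRD1 was larger in cells that lacked CRD2 as well. For Dkk3 the value depends on the pseudocount, since ∆CRD1,2/∆CRD1,2 pro-B cells had 3 reads in all.

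Tmprss3 differed by −1.25 (standard error 0.33, adjusted p = 0.0396 from limma), and this call was lost in 18 of 37 alternatives. Leaving out 1 library lost it for 14 libraries, with an adjusted p of up to 0.163 without ∆CRD2/∆CRD2 replicate 1, 0.161 or 0.0575 without ∆CRD1,2/∆CRD1,2 replicate 1 or 2, 0.0940 or 0.155 without ∆CRD1/∆CRD1 replicate 1 or 2, 0.0512 to 0.0571 without +/+ replicate 1, 2 or 5, and 0.0511 to 0.0532 without any 1 of the ∆CRD1/−, ∆HD/∆HD or ∆OP,HD/∆OP,HD samples, which enter through the shared spread. The values of Cacna1e (−1.03, 95% confidence interval −2.27 to 0.20) and Mgst1 (−1.58, −2.76 to −0.41, adjusted p = 0.118) did not pass, and that of Mgst1 did without either ∆/∆ sample (adjusted p = 0.0189 and 0.019), with edgeR and with DESeq2. The ∆CRD1/∆CRD1 samples had 50-nucleotide reads and the other mutants 100-nucleotide reads, and each difference was taken within 1 read length.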

How the results depend on the processing

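Of 27 summarized results, 14 did not move in any of their alternatives, and 39 of 569 values moved. Among 2416 alternative values of single genes, 65 lost and 27 gained a call, and 32 uncalled values changed sign, but 0 called ones. The number of members lower in ∆HD/∆HD pro-B cells (3) was 1 with a pseudocount of 0.01, without the filter or with the fold and level thresholds of the study, and 5 without a read length term. In ∆OP,HD/∆OP,HD pro-B cells (1) it was 0 with median-ratio scaling, with only the 2 groups compared or with the thresholds of the study, and 2 with samples of 1 read length, edgeR or DESeq2. Between ∆HD/∆HD and ∆OP/∆OP pro-B cells (4) it was 2 with a pseudocount of 0.01. DESeq2 called 1 member in ∆OP/∆OP pro-B cells, and edgeR and DESeq2 2 each between Prd/∆ and ∆/∆ progenitors. From LMPP to DN1 1 member passed with a pseudocount of 0.01, and without the filter 1 passed from DN1 to DN2a and 2 from DN2b to DN3a. With a pseudocount of 1 the median log2 fold change of the members was −3.16 in ∆CRD1/−, −4.00 in ∆CRD1,2/− and −3.58 in ∆/∆ cells against +/+, and −0.83 in ∆CRD1,2/− against ∆CRD1/− pro-B cells. Without a read length term it was −5.99 in ∆CRD1,2/− pro-B cells and 1.29 for 2 copies against 1 of ∆CRD1.

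Leaving out 1 sample gave 1 to 3 members in ∆HD/∆HD (changed without +/+ replicate 3 or 4 or either mutant sample), 0 to 1 in ∆OP,HD/∆OP,HD (without +/+ replicate 3 or either mutant sample), 2 to 4 between ∆HD/∆HD and ∆OP/∆OP (without replicate 2 of either), 0 to 1 between Prd/∆ and ∆/∆ (without Prd/∆ replicate 2) and 1 to 2 from DN2b to DN3a (without a DN2b sample labelled replicate 2). The medians ranged from −5.77 to −5.28 in ∆CRD1,2/− and from −4.71 to −4.08 in ∆/∆ cells against +/+.

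Replicate numbers did not pair the samples, with correlations of deviations from −0.373 to 0.260 over 45 pairs of pro-B samples, of which 10 were above 0.1, and from −0.162 to 0.0967 over 3 pairs of the Prd experiment. With the replicate number as a block, 0 members passed in both ∆HD/∆HD and ∆OP,HD/∆OP,HD, and the median in ∆CRD1,2/− pro-B cells was −6.01. The other counts moved by at most 1.5 times under the block. With 2 samples per mutant the spread is estimated largely from other genotypes, and in ∆CRD1,2 and ∆/∆ cells depth limits Dkk3.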
